A study of Mus musculus with 2 samples.

Results

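The small proline-rich protein (Sprr) family was followed in mouse organoid cells through 9 genes, Sprr1a, Sprr1b, Sprr2a1, Sprr2a2, Sprr2a3, Sprr2d, Sprr2f, Sprr2h and Sprr3, of the 32285 genes in the deposited count matrix. They were taken by name, with earlier results of these data known, and the 6 other Sprr symbols in the matrix are given only by their counts. Organoids grown from epithelial stem cells of mouse esophagus and of mouse stomach were labeled untreated, and the cells of each tissue, combined from several mice, formed 1 sample with its own MULTI-seq tag (a lipid-anchored DNA barcode that marks the sample of a cell). The stomach medium held conditioned medium with WNT3A and R-spondin1 and gastrin, and the esophageal medium held forskolin, so tissue and medium differed together and their parts cannot be told apart. Transcripts were counted at their 3′ ends as unique molecular identifiers (UMIs), and levels are given as CPM, the UMIs of a gene when the UMIs of a group of cells are scaled to 1000000. Each tissue is 1 sample, so differences lack a replicate check and p-values are not given. All intervals are 95% intervals for counting error only.

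Sprr proteins are precursors of the cornified envelope, the sheet of cross-linked protein that lines the inner face of the membrane of terminally differentiated squamous cells. Transglutaminases join them to other envelope proteins such as loricrin and involucrin, and their genes lie side by side in the epidermal differentiation complex. The mouse esophagus is lined by a stratified squamous epithelium, in which basal cells divide and suprabasal cells differentiate, whereas the glandular stomach is lined by columnar cells that build no cornified envelope.

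The esophageal tag held 919 barcodes and 23778678 UMIs and the stomach tag 180 barcodes and 8047185 UMIs, of which 765 and 90 barcodes passed limits on genes, UMIs and mitochondrial share. Cells were called from 6 keratins: 702 esophageal cells were squamous (18456220 UMIs, median 23460 per cell) and 46 stomach cells were columnar (2469229 UMIs, median 59575.5). Markers that the call did not use gave a mixed check of the labels. The basal list stood at 5151 CPM in the squamous and 628 CPM in the columnar cells, the suprabasal list at 4227 and 1694 CPM, and 11 columnar genes other than Krt8 and Krt18 at 613 and 6391 CPM. The gastric neck and chief list stood at 15.9 and 739.9 CPM, but the gastric pit list was higher in the squamous cells (32.0 and 15.0 CPM). Keratins of the other lineage remained at 195 CPM (Krt5, Krt14, Krt6a and Krt13 in stomach cells) and 95.8 CPM (Krt8 and Krt18 in esophageal cells). Fibroblast, endothelial and smooth muscle genes together had 8 UMIs in the esophageal and 0 in the stomach cells. The immune list, with 2 of 5 genes detected, had 160 UMIs in the stomach cells. The mucin Muc5ac, which defines gastric pit cells, had 0 UMIs in the stomach cells.

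All 9 genes lie within chromosome 3 (build GRCm38), from the start of Sprr2a1 at 92215799 to the end of Sprr1a at 92485895. The Sprr2 genes are on the plus strand, and Sprr1b, Sprr3 and Sprr1a follow them on the minus strand. Near-identical copies limit what the counts can say about single members, and the coding sequences of the Sprr2a genes are shown because they set that limit. Sprr2a1 and Sprr2a2 had the same 249 coding bases, and Sprr2a3 differed from them at 3 positions (98.8% identity), marked in capitals. The coding parts of Sprr2a1 (chr3:92219092-92219340) and Sprr2a3 (chr3:92288588-92288836) on the plus strand of GRCm38 read:
Sprr2a1 and Sprr2a2: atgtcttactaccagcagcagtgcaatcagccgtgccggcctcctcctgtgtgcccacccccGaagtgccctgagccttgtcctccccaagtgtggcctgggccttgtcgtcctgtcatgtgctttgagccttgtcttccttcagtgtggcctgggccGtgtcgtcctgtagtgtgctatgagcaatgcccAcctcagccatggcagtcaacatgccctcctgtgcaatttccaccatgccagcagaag
Sprr2a3: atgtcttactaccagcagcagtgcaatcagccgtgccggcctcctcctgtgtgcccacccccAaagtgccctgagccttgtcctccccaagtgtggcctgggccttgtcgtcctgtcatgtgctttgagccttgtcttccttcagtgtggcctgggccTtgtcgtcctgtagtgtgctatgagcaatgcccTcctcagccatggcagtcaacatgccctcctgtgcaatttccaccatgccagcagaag
Against Sprr2a3, the coding bases of Sprr2b, Sprr2d, Sprr2f and Sprr2h were 74.5%, 69.3%, 64.1% and 61.7% identical, and Sprr2d and Sprr2f were 80.8% identical to each other.

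The counted reads come from the 3′ end, so identity was also measured there, over the last 500 bases of each annotated transcript. Every window of 90 bases in Sprr2a1 and in Sprr2a2 also occurred in another gene. For Sprr2a3 the share of such windows was 28.5% in its 682-base transcript and 56.2% in its 2880-base transcript. For Sprr1a, Sprr1b, Sprr2d, Sprr2f, Sprr2h and Sprr3 it was 0%. With windows of 50 bases the share rose to 49.0% and 77.8% for Sprr2a3 and was 0.887% for Sprr2f, and it stayed at 0% for the other 5. The annotated interval of Sprr2a2 (92215920 to 92256724) also spans most of Sprr2a1 (92215799 to 92221911). The counts of Sprr2a1 and Sprr2a2 therefore cannot be assigned to one gene or the other, and the 3 Sprr2a genes are given together, as the Sprr2a copies, wherever a sum is needed. In each sample nearly all of that sum was counted to Sprr2a3: per 100 Sprr2a3 UMIs there were 2.65 (2.10 to 3.31) of Sprr2a1 in esophageal squamous cells and 0.839 (0.634 to 1.09) in stomach columnar cells. Of the 3 copies, Sprr2a3 alone had windows found in no other gene, so this split does not measure the level of each copy. The handling of reads that fit more than 1 gene was not examined, and the sum misses any that were dropped.

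Promoters are shown so that members of different level can be read side by side. The 200 bases before the RefSeq start (GRCm38.p6) are printed in the direction of transcription for 3 members that were high in differentiated squamous cells and for Sprr2a3, with each TGANTCA, the letters that AP-1 factors bind, in capitals. They cover chr3:92338940-92339139 (Sprr2d, plus strand), chr3:92364987-92365186 (Sprr2f, plus strand), chr3:92485882-92486081 (Sprr1a, minus strand) and chr3:92285104-92285303 (Sprr2a3, plus strand).
Sprr2d: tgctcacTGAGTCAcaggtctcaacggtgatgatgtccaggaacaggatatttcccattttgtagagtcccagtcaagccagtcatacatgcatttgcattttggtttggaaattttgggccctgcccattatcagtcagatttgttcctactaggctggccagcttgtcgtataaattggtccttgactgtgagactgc
Sprr2f: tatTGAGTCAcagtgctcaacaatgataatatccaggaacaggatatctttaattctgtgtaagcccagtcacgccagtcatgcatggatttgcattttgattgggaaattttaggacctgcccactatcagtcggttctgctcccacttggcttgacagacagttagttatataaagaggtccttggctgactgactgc
Sprr1a: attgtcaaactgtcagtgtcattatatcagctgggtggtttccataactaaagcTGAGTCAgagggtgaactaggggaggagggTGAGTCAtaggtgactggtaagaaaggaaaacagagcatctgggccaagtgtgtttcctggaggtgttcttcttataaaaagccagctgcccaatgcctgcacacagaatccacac
Sprr2a3: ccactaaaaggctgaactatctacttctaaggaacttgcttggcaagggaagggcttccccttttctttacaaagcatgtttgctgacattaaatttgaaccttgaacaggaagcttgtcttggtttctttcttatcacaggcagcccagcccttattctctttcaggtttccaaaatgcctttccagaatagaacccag
The search took TGANTCA and TATAAA on both strands of a window of 300 bases that reaches 50 bases past the start. TGANTCA occurred in 5 of the 9 members (Sprr1a, Sprr1b, Sprr2d, Sprr2f and Sprr2h), against 7.79% of 32544 promoters of the same length. TATAAA occurred in 6 of 9 (the same 5 and Sprr3), against 13.6%. In Sprr2d, Sprr2f and Sprr2h the TGANTCA match began 193, 197 and 198 bases before the start, and the TATAAA match 29 bases before it in each. These matches sit at nearly the same place in genes of 1 group, so they are not separate hits beside the share over all promoters. The 3 Sprr2a windows held neither motif, whereas that of Sprr2b, which was also higher in the stomach cells, held both. The Sprr2a1 and Sprr2a2 windows were identical and were 82.9% identical to that of Sprr2a3, and the RefSeq start of these genes is not the start in the annotation used for the counts. A match is a description of letters and shows no binding.

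The first comparison asked how the family differed between esophageal squamous and stomach columnar cells. By a limit of 2 times, 6 of the 9 members were higher in the esophageal cells, beside 14.8% of 12717 genes, and 3 were higher in the stomach cells, beside 18.7%. The median log2 ratio of the members was 5.76, beside -0.04 over all measured genes. The 6 higher members were Sprr1a, Sprr1b, Sprr2d, Sprr2f, Sprr2h and Sprr3, and the 3 lower were the Sprr2a copies. These copies share 3′ sequence, so they are not separate calls.

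**Figure D1:**
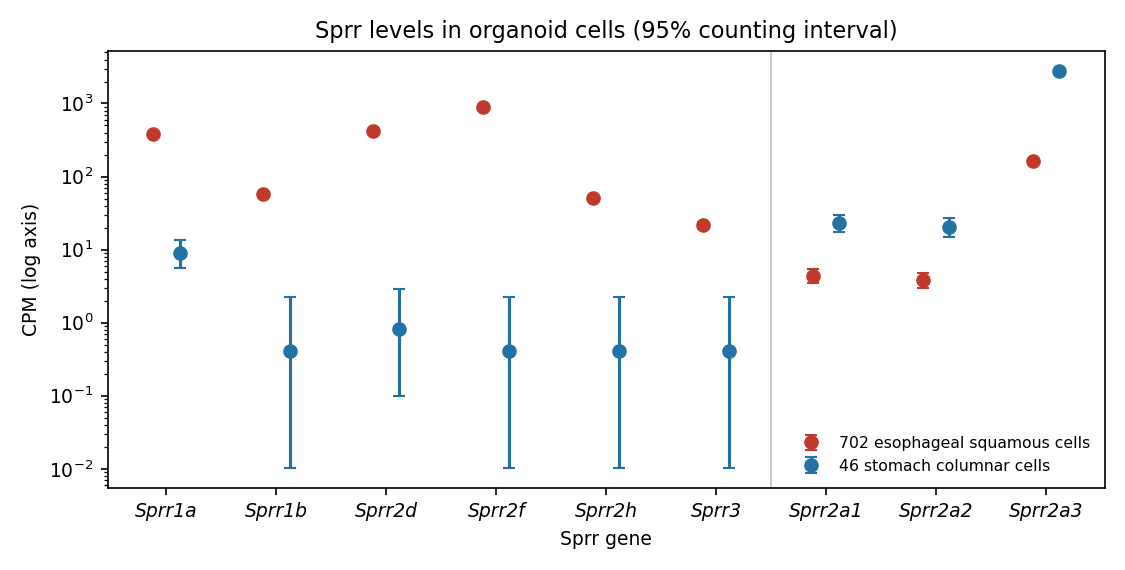
CPM on a log axis for the 9 Sprr genes in 702 esophageal squamous cells (red) and 46 stomach columnar cells (blue), with 95% counting intervals, most of them narrower than the points in red. The 6 genes to the left of the line are higher in the esophageal cells, and the 3 Sprr2a copies to the right are higher in the stomach cells.

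Sprr1a, a cross-bridging envelope precursor that rises in stressed and regenerating epithelia, had 7002 UMIs (379 CPM, 370.6 to 388) in the squamous cells and 22 UMIs (8.91 CPM, 5.58 to 13.5) in the columnar cells, 15 of them in 1 cell. It was 42.6-fold higher in the esophageal cells (28.1 to 68.0), or 93.4-fold without the leading cell of each sample. Sprr1b had 1078 UMIs (58.4 CPM) and 1 UMI, Sprr2h 937 UMIs (50.8 CPM) and 1 UMI, and Sprr3, a member typical of esophageal and oral epithelium, 404 UMIs (21.9 CPM) and 1 UMI. Against a lone stomach UMI the folds were 144 (25.8 to 5702), 125 (22.4 to 4957) and 54.1 (9.65 to 2140.1). Sprr2d had 7683 UMIs (416 CPM) and 2 UMIs, a 514-fold difference (142 to 4245). Sprr2f, the member with the most UMIs in the esophageal cells, made up 45.1% of their family UMIs, followed by Sprr2d (20.8%) and Sprr1a (18.9%). This order rests on 10 of the 702 cells: without them Sprr2a3 had 24.5% of the family UMIs, Sprr1a 23.4%, Sprr2f 23.0% and Sprr2d 10.2%. The 10 were ranked by family UMIs, of which Sprr2f and Sprr2d had the largest shares. Leaving them out thus lowers these members most, and the new order is partly set by the ranking. Together these 6 members had 33770 UMIs in the squamous cells and 28 in the columnar cells (1829.7 against 11.3 CPM, 161-fold, 112 to 243). Without the 10 squamous cells with the most family UMIs the fold was 38.6, that of Sprr2f was 335, that of Sprr2d 74.3 and that of Sprr1a 15.5, all in the same direction. The Sprr1b fold fell to 14.1 with no keratin call, a setting that adds the squamous and hybrid droplets of the stomach tag to the stomach sum.

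The Sprr2a copies went the other way. Sprr2a3 had 6797 UMIs in the 46 stomach columnar cells (2753 CPM, 2688 to 2819) and 3052 in the 702 esophageal squamous cells (165 CPM, 159.5 to 171), so that it was 16.6-fold higher in the stomach (15.9 to 17.4). Sprr2a2 had 50 UMIs (20.2 CPM) and 70 (3.79 CPM), a 5.34-fold difference (3.64 to 7.79), and Sprr2a1 differed by a similar ratio. As a share of family UMIs the Sprr2a copies made up 99.6% in the stomach and 8.66% in the esophagus, or 25.7% without the 10 cells. The sum over all 9 members was therefore of the same order in both tissues (2807 and 2003 CPM, 1.40-fold higher in the stomach, 1.37 to 1.44) although the members behind it differed. This sum depends on how cells are weighted: with every cell weighted equally it was 1.31-fold higher in the esophagus, and without the 10 esophageal cells with the most family UMIs it was 4.76-fold higher in the stomach. The latter setting kept all 46 stomach cells, so it lowers the esophageal side alone and cannot show which tissue is higher.

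Sprr2a3 was detected in most stomach cells, although its sum was uneven. Of 46 columnar cells, 42 had a Sprr2a3 UMI, 17 had at least 100 and the median was 69.5 UMIs (1113 CPM). The highest cell had 1036 UMIs (16161 CPM), 15.2% of the sum, and 6 cells held 50% of it. The fold over the esophageal cells was 15.1 without the leading cell of each sample and 7.94 as the mean of single cells. At least 1000 CPM were reached by 26 of the 46 columnar cells. With all cells thinned to 5000 UMIs, Sprr2a3 was detected in 86.7% of 45 columnar cells (73.2 to 94.9) and Sprr2f in 2.22% (0.0562 to 11.8). Sprr2a3 also led the family in columnar cells outside the comparison. In 41 stomach columnar cells over the limit on UMIs or genes it stood at 2049 CPM (97.1% of their family UMIs, with Sprr1a at 1.06%). In 24 columnar cells that carried the esophageal tag Sprr2a3 stood at 1595 CPM and the other 6 members together at 21.7 CPM. The Sprr2a copies made up 98.7% of the family UMIs of these 24 cells. Their tissue is uncertain, since the study's methods report cells with wrongly assigned sample barcodes.

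The second comparison followed the family along squamous differentiation. A score was built from 22 suprabasal and 14 basal genes, none of them a Sprr gene or a gene of the cornified envelope list, and the 491 squamous cells with at least 5000 UMIs were divided by it into 5 bins of 98 or 99 cells, bin 1 with the lowest and bin 5 with the highest scores. A bin is a range of a score and not a cell type: between 11 and 76 cells lay within 0.1 of each boundary, the fewest between bins 4 and 5. From bin 1 to bin 5 the basal list went from 7979 to 1352 CPM and the suprabasal list from 1254 to 15515 CPM, which describes the grouping. Median depth was 37055 UMIs in bin 1 and 23203 in bin 5.

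Family level was low over the first 4 bins and high in the last. All 9 members together stood at 178, 142, 190.3 and 249 CPM in bins 1 to 4 and at 11043 CPM in bin 5 (61.9-fold over bin 1, 57.3 to 66.9). Bin 5 held 91.6% of the family UMIs of the 491 cells, and 98.4% of those of Sprr2f. By the limit of 2 times, 9 of 9 members were higher in bin 5 than in bin 1, beside 7.65% of 10894 genes, and 0 were lower, beside 25.2%. Each of the Sprr2a copies enters this count, although they share 3′ sequence and are not separate calls. The median log2 ratio of the members was 3.42, beside -0.43 over all these genes. Without the 10 squamous cells with the most family UMIs, all of them in bin 5, the family was 11.7-fold higher there than in bin 1. Leaving them out lowers bin 5 alone.

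**Figure D2:**
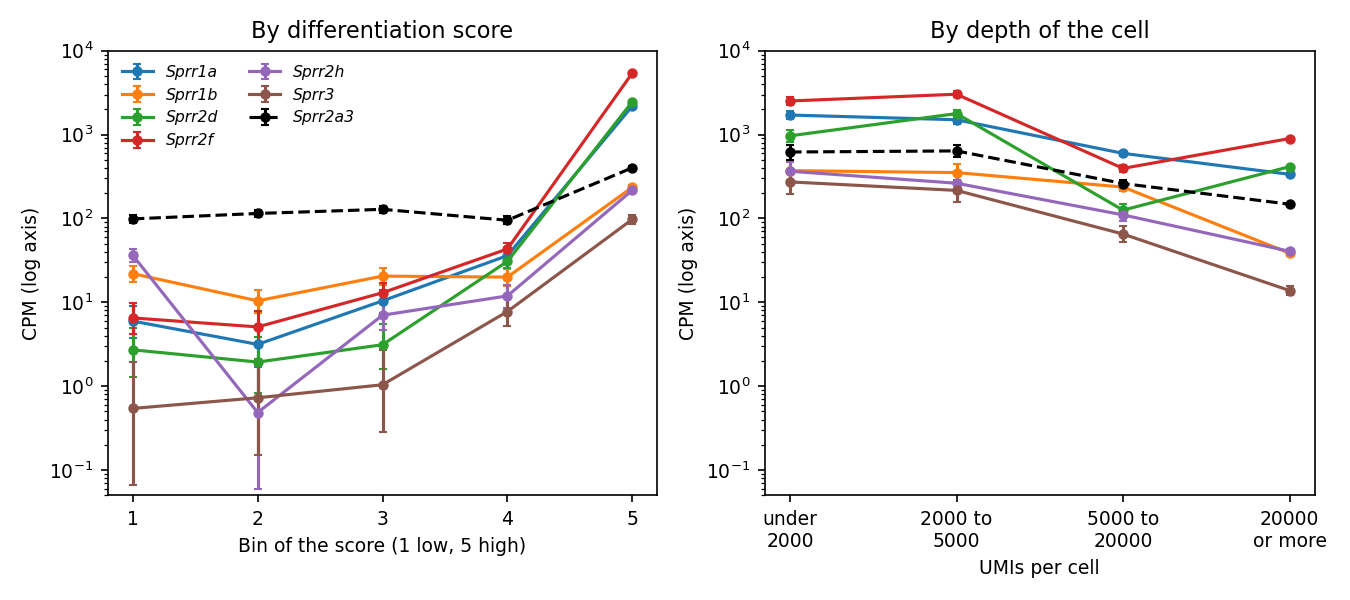
CPM on a log axis for Sprr1a, Sprr1b, Sprr2d, Sprr2f, Sprr2h, Sprr3 and Sprr2a3 (dashed) in esophageal squamous cells, by bin of the differentiation score (left, 98 or 99 cells each) and by band of UMIs per cell (right, 145, 66, 116 and 375 cells), with 95% counting intervals. The 6 solid lines rise steeply into bin 5, Sprr2a3 starts high and rises 4.07-fold, and every line is higher in the band under 2000 UMIs than in the deepest band.

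Sprr2f and Sprr2d, both of the Sprr2 group, were among the members with large steps. Sprr2f stood at 6.52, 5.10, 13.0 and 43.3 CPM in bins 1 to 4 and at 5414.5 CPM in bin 5 (830.5-fold over bin 1, 558 to 1297, and 125-fold over bin 4). Sprr2d stood at 2.72, 1.94, 3.12 and 30.8 CPM and then at 2469 CPM (909-fold over bin 1, 494 to 1896). The Sprr2d value of bin 1 rests on 10 UMIs, 7 of them in 1 cell, and the fold was 1787 without the leading cell of each bin and 3328 with a mitochondrial limit of 10%. Bin 4 was 6.64-fold (4.31 to 10.7) above bin 1 for Sprr2f and 11.3-fold (5.94 to 24.3) for Sprr2d, but 5 of its 98 cells held 131 of its 156 Sprr2f UMIs and 5 held 97 of its 111 Sprr2d UMIs. Cells without a Sprr2f UMI numbered 79 of 98 in bin 4 and 83 of 99 in bin 1. Without the 10 leading cells the folds of bin 5 over bin 1 were 73.4 for Sprr2f and 63.0 for Sprr2d, below those of Sprr1a and Sprr3. The 10 were ranked by a sum in which Sprr2f and Sprr2d have the largest shares, so this order is partly set by the ranking.

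Sprr1a followed the same course, at 5.98, 3.15, 10.4, 36.1 and 2185 CPM over the 5 bins (366-fold, 241 to 584, or 118-fold without the 10 leading cells). Sprr3 had 2, 3, 4 and 28 UMIs in bins 1 to 4 and 277 in bin 5 (97.6 CPM, 179.7-fold over bin 1, 49.3 to 1491, 108-fold without the 10 leading cells and 412-fold as the mean of single cells). Sprr1b differed in shape: it stood between 10.4 and 22.0 CPM in bins 1 to 4, with bin 4 at 0.909 times bin 1 (0.652 to 1.26), and rose to 235 CPM in bin 5 (10.7-fold, 8.49 to 13.6). Sprr1b thus had a measurable level in cells of low score: in bins 1 and 2 Sprr2d and Sprr3 stood between 0.543 and 2.72 CPM. The Sprr2h value of bin 1, 36.4 CPM, rested on 1 cell with 89 UMIs (66.4%). Without the leading cell of each bin the rise of Sprr2h to bin 5 was 13.5-fold, against 5.96-fold (4.94 to 7.24) with them.

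Sprr2a3 was the member with the highest level in bins 1, 2, 3 and 4, at 98.9, 115, 129 and 95.2 CPM, and it made up 55.4% of the family UMIs in bin 1. It then rose to 402 CPM in bin 5, 4.07-fold over bin 1 (3.61 to 4.59), where it made up 3.64%. Bin 4 was at 0.963 times bin 1 (0.829 to 1.12). The rise was 2.92-fold without the 10 leading cells. Sprr2a1 and Sprr2a2 had 32 and 28 UMIs in bin 5 and 10 each in bin 1, which gives ratios close to that of Sprr2a3 with wide intervals (4.15, 1.99 to 9.47, and 3.63, 1.71 to 8.38). Between Leiden clusters in place of bins the Sprr2a2 ratio was 1.67, below the limit of 2 times.

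Detection at equal depth was also highest in bin 5 for each of these 6 members and for Sprr2a3. With every cell thinned to 5000 UMIs, the share of cells with a UMI went from 2.02% in bin 1 to 52.0% in bin 5 for Sprr1a, from 4.04% to 46.9% for Sprr2f, from 7.07% to 48.0% for Sprr1b, from 6.06% to 38.8% for Sprr2h, from 1.01% to 32.7% for Sprr2d and from 0% (0 of 99 cells, upper bound 3.66%) to 28.6% for Sprr3. For Sprr2a3 it went from 31.3% to 52.0%, with the lowest share, 23.5%, in bin 4. Unthinned, 64.3% of the cells of bin 5 and 16.2% of those of bin 1 had a Sprr2f UMI. In stomach columnar cells, thinned alike, 2.22% had a Sprr2f UMI and 0% (upper bound 7.87%) had a Sprr3 UMI.

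**Figure D3:**
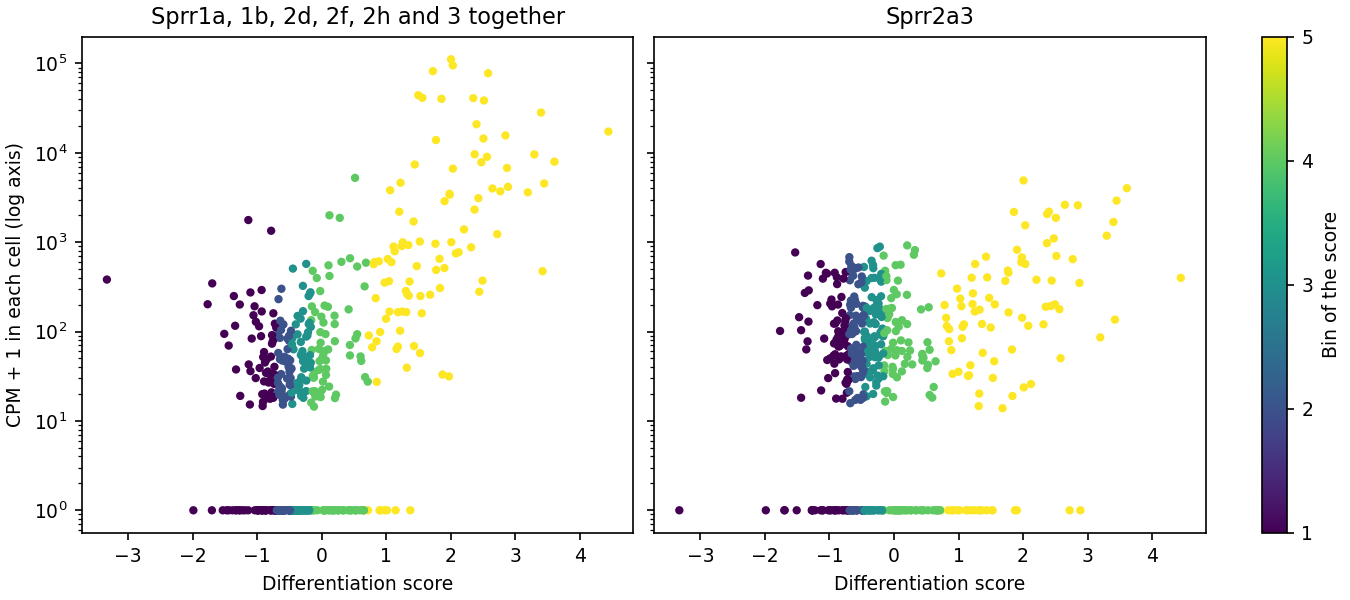
CPM + 1 on a log axis in each of 491 esophageal squamous cells against the differentiation score, for Sprr1a, Sprr1b, Sprr2d, Sprr2f, Sprr2h and Sprr3 together (left) and for Sprr2a3 (right), colored by bin of the score, with cells without a UMI at 1. The left panel spans cells with 0 and cells with over 10000 CPM within bin 5, and the right panel shows Sprr2a3 in cells of every bin.

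Cells of bin 5 differed widely among themselves. For Sprr2f, 35 of the 98 cells had 0 UMIs, 39 had 1 to 9, 11 had 10 to 99 and 13 had at least 100, with a median of 1 and a maximum of 4022. Sprr1a had 36, 30, 20 and 12 cells in the same ranges and a maximum of 1998 UMIs. Sprr2d had 49, 35, 8 and 6 cells and a maximum of 2974. The high sums thus came from a small number of cells: 3 cells held 50% of the Sprr2f UMIs of bin 5, 3 of Sprr1a and 2 of Sprr2d. For Sprr1b and Sprr2h, each with 1 cell of at least 100 UMIs, 7 and 5 cells did. The leading cell held 24.4% of the Sprr2h and 26.2% of the Sprr2f UMIs, so Sprr2h was concentrated too. The family median over the cells of bin 5 was 829 CPM, above the medians of bins 1 to 4 (128, 80.5, 128 and 111 CPM).

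Over all 702 squamous cells, 5 cells held 50% of the family UMIs, 79 held 90% and 94 had none. At least 100 family UMIs were found in 24 cells, of which 19 were in bin 5, 1 in bin 4 and 4 below 5000 UMIs. Sprr2f was the leading member in 14 of these cells, Sprr1a in 7, Sprr2d in 2 and Sprr2a3 in 1. The cell with the most had 7516 family UMIs, 9.68% of its 77644 UMIs, with 4022 of Sprr2f, 2974 of Sprr2d, 384 of Sprr1a and 0 of Sprr1b. High cells were not alike in composition. The cell of rank 6 by family UMIs had 1998 UMIs of Sprr1a, 4 of Sprr2f and 0 of Sprr2d, and that of rank 4 had more Sprr2d (1294) than Sprr2f (993).

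**Figure D4:**
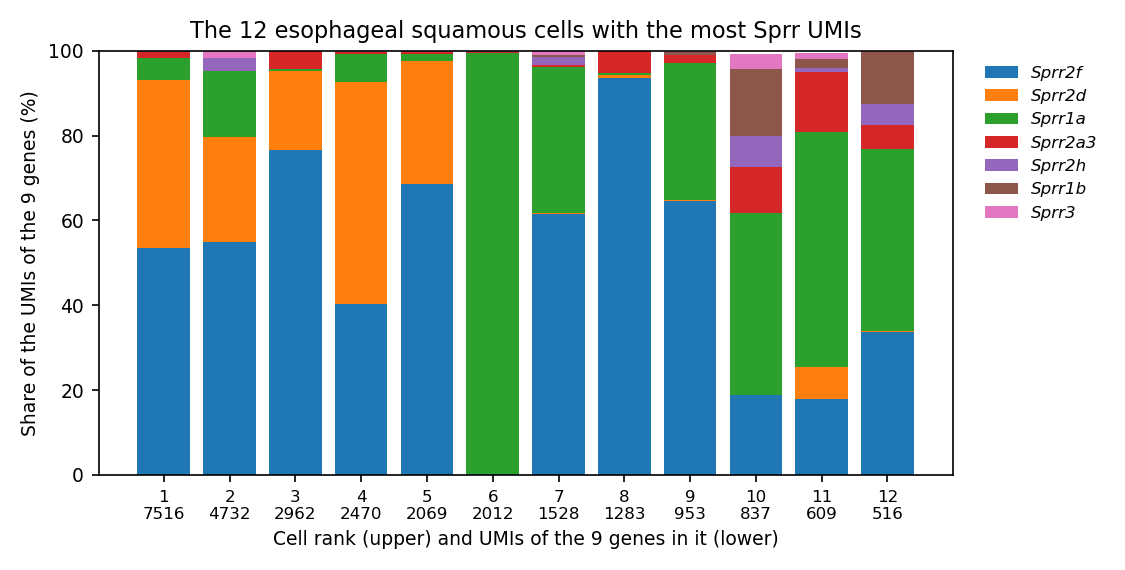
Share of family UMIs (%) given to each member in the 12 esophageal squamous cells with the most, ordered by rank, with the number of family UMIs below each bar; Sprr2a1 and Sprr2a2, at most 5 UMIs per cell, are not drawn. Sprr2f (blue) is the largest part in 7 of the 12 bars, Sprr1a (green) in 4 and Sprr2d (orange) in 1.

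Cells with at least 50 UMIs of one member often, but not always, had at least 50 of another. Of 9 such Sprr2d cells, 8 were also Sprr2f cells, while 8 of the 20 Sprr2f cells were Sprr2d cells. Sprr1a and Sprr2f shared 10 cells, of 16 and 20. Sprr1b, Sprr2h and Sprr3 reached 50 UMIs in 3, 3 and 1 cells. Among the 12 leading cells, Krt8 and Krt18 together had 1 to 24 UMIs and the squamous keratins 107 to 2851.

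Low counts of Krt8 and Krt18 were present in squamous cells, so the Sprr2a3 level there was set beside them. In stomach columnar cells there were 63.9 Sprr2a3 UMIs (62.0 to 65.9) per 100 UMIs of Krt8 and Krt18, and in the columnar cells of the esophageal tag 28.9 (27.2 to 30.8). In squamous bins 1 to 4 the ratio was 93.3, 159, 153 and 117, and in bin 5 it was 434 (379 to 498). The call of squamous and columnar cells used Krt8 and Krt18, which partly fixes the ratio between these classes, so only the bins can be read against each other. Krt8 and Krt18 stood at 106 CPM in bin 1 and 92.7 CPM in bin 5, so they did not rise with Sprr2a3. The other 11 columnar genes stood at 570 and 924 CPM, mostly through Epcam (352 and 586 CPM) and Krt19 (204 and 312 CPM), and their part in the Sprr2a3 difference was not tested. The 6 squamous cells with at least 50 Sprr2a3 UMIs, all in bin 5, had 66 to 125 of them, 1 to 4 UMIs of Krt8 and Krt18 and 109 to 4022 of Sprr2f. These 6 cells, picked for their Sprr2a3 counts, stood at 1181 to 4909 CPM. Over all cells, 13 of 98 in bin 5 and 26 of 46 stomach columnar cells reached 1000 CPM.

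**Figure D5:**
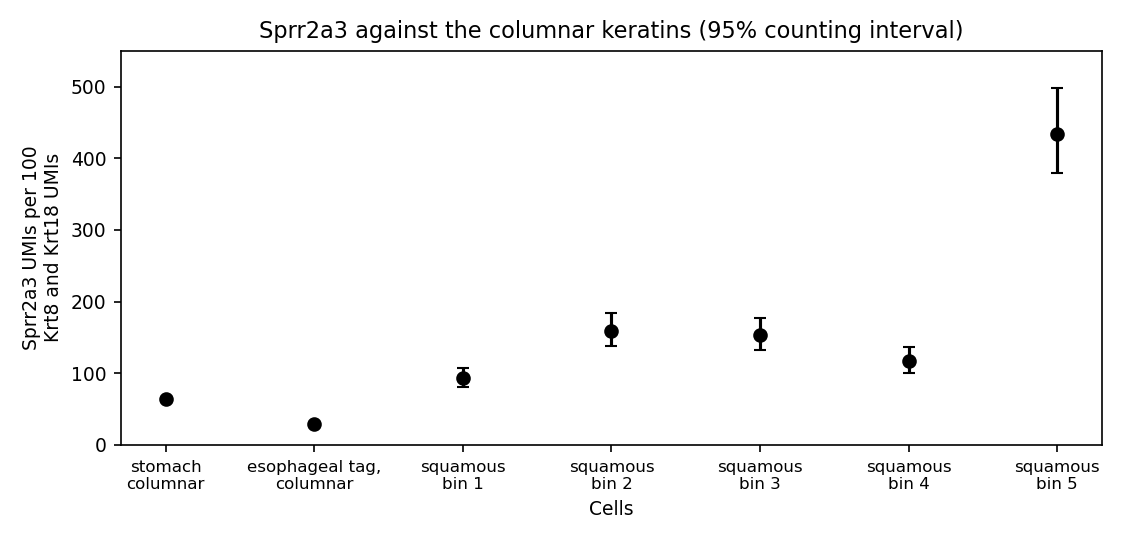
Sprr2a3 UMIs per 100 UMIs of Krt8 and Krt18 (linear axis) in stomach columnar cells, columnar cells of the esophageal tag and the 5 bins of the squamous score, with 95% counting intervals. The ratio is 63.9 and 28.9 in the columnar cells, between 93.3 and 159 in bins 1 to 4 and 434 in bin 5. The keratin call partly fixes the ratio between columnar and squamous cells, so only the bins can be read against each other.

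The third comparison asked how the family varied with the depth of a squamous cell. In cells of under 2000, 2000 to 5000, 5000 to 20000 and at least 20000 UMIs (145, 66, 116 and 375 cells) all 9 members together stood at 6867, 7816, 1807 and 1898 CPM. The shallowest band was 3.62-fold above the deepest (3.41 to 3.84). It was 20.1-fold above without the 10 cells with the most family UMIs, all of which belong to the deepest band. Cells under 2000 UMIs, with at most 61 family UMIs each, could not rank among them, so this trim lowers the deep band alone. Of the 145 cells under 2000 UMIs, 110 had a family UMI, and the median over all 145 was 1838 CPM.

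The 7 members given here were all higher in the shallowest band, by different folds. Sprr3 went from 273 CPM in the shallowest to 13.8 CPM in the deepest band (19.7-fold, 13.96 to 27.3), Sprr1b from 372 to 38.5 CPM (9.66-fold, 7.29 to 12.6) and Sprr2h from 366 to 40.7 CPM (8.998-fold, 6.78 to 11.8). Sprr1a was 5.09-fold higher in the shallowest band, Sprr2a3 4.19-fold, Sprr2f 2.80-fold and Sprr2d 2.33-fold. The deep band rests on few cells: its leading cell held 26.6% of the Sprr2f, 42.5% of the Sprr2d, 35.3% of the Sprr1a and 33.0% of the Sprr3 UMIs. Without the 10 leading cells the folds were 45.9 for Sprr2f, 40.4 for Sprr2d, 24.6 for Sprr1a, 46.6 for Sprr3, 14.1 for Sprr2h, 12.1 for Sprr1b and 4.99 for Sprr2a3, so the order of the members depends on those cells. In the band under 2000 UMIs the leading cell held 10.3% of the Sprr2f and 12.2% of the Sprr2d UMIs.

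The shallow band also differed in its markers. The suprabasal list stood at 15117 CPM there and at 3731 CPM in the deepest band, and the basal list at 3139 and 5211 CPM. Genes of other cells were higher too: Krt8 and Krt18 stood at 856 and 81.9 CPM, the 11 other columnar genes at 1756 and 593 CPM, and the 4 gastric pit genes at 1117 and 16.7 CPM, of which the trefoil factor Tff1 made up 930.5 and 14.7 CPM. The part of these in the family levels was not tested. In the same band Sprr2a3 was at 72.5 per 100 UMIs of Krt8 and Krt18 (55.4 to 94.4). The keratin call partly fixes this ratio, so it is not read against that of the columnar cells. Sprr2f, with 1 UMI in the stomach columnar cells, stood at 2518.5 CPM.

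Compared with bin 5 of the deeper cells, cells under 2000 UMIs had more Sprr3 (2.80-fold, 1.99 to 3.85), Sprr2h (1.69-fold, 1.27 to 2.20), Sprr1b (1.58-fold, 1.19 to 2.06) and Sprr2a3 (1.54-fold, 1.24 to 1.89). For Sprr2d, Sprr2f and Sprr1a, bin 5 was 2.55-fold (2.18 to 3.01), 2.15-fold (1.95 to 2.38) and 1.28-fold (1.13 to 1.45) higher, a direction that the 10 leading cells set. Without them these members too were higher under 2000 UMIs, by 5.66-fold, 5.26-fold and 2.43-fold. Sprr1a turned (1.04-fold) when only the leading cell of each group was left out. Cells under 2000 UMIs, with at most 61 family UMIs, could not be among the 10. Leaving the 10 out thus lowered bin 5 alone and cannot show which group is higher. By share of family UMIs, Sprr2f made up 36.7% under 2000 UMIs and 49.0% in bin 5, or 22.9% in bin 5 without the 10 cells, and Sprr3 made up 3.97% and 0.884%, or 2.82% without them.

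Cells were then split by score within a band of depth. Within the cells of 5000 to 20000 UMIs, those above the median score had 3672 CPM of the family and those below it 217 CPM (17.0-fold, 14.3 to 20.2). Within the cells of at least 20000 UMIs the values were 3689 and 153 CPM (24.2-fold, 22.9 to 25.6), or 3.59-fold without the 10 leading cells. The difference by score was thus present in both bands. Each band was split at its own median, so the cells above it were not matched in score: their median score was 1.23 in the shallower band and 0.06 in the deeper one, and depth and score cannot be told apart between them. Their family levels were close (ratio 0.995, 0.952 to 1.04), but without the 10 leading cells, all in the deeper band, the shallower cells were 6.71-fold higher. Among single members, Sprr1b was 7.65-fold (6.58 to 8.87), Sprr3 5.13-fold (3.92 to 6.64) and Sprr2h 3.42-fold (2.80 to 4.15) higher in the shallower cells, whereas Sprr2d was 3.29-fold (2.79 to 3.90) and Sprr2f 2.18-fold (1.99 to 2.39) higher in the deeper ones. Without the 10 cells Sprr2d and Sprr2f were 5.27-fold and 7.59-fold higher in the shallower cells instead. Leaving out the 10 cells lowers the deeper side alone, so it does not settle either direction. In the cells of 5000 to 20000 UMIs the median mitochondrial share was 11.7% below and 0.976% above the median score, and its part in the difference was not tested.

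Other genes of the cornified envelope were taken from a list of 34, of which 33 were in the matrix. Between bin 5 and bin 1, 16 of 19 with enough counts were higher by 2 times or more, 1 was lower and 2 lay between, with a median log2 ratio of 3.43, beside -0.43 over all genes. Between esophageal squamous and stomach columnar cells 13 of 23 were higher, 2 lower and 8 between, with a median of 1.32, beside -0.04 over all genes. Crct1, a neighbor in the epidermal differentiation complex, had 3632 UMIs in bin 5 and 23 in bin 1 (205-fold, 136 to 324). Cnfn (cornifelin), an envelope component, went from 9.24 to 1424 CPM (154-fold, 110.1 to 223). Nccrp1 had 1203 UMIs and 0 UMIs and was 520.2-fold higher against an assumed floor of 3 counts over bin 1 (the counting interval of the ratio begins at 422). Tgm3, a transglutaminase that cross-links Sprr proteins, had 50 UMIs and 1 UMI (64.9-fold, 11.1 to 2613). The calgranulins S100a9 (104-fold, 52.4 to 241) and S100a8 (46.3-fold, 15.4 to 228) were higher too, with 1 cell holding 55.2% and 70.1% of their UMIs in bin 5. The lower gene, Ivl (involucrin), an early envelope scaffold chosen for mention once its value was known, had 7 UMIs in bin 5 and 25 in bin 1 (0.363 times, 0.133 to 0.864).

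The genes most like the family across cells were found by rank correlation with the 9 members summed, over 491 squamous cells of 1 library, all thinned to 5000 UMIs, among 6870 genes. The points share the library and the range of differentiation, so these are descriptions. The 8 highest were Arg1 (0.52), Krt6b (0.49), Cnfn (0.49), Crct1 (0.47), Psca (0.47), Slpi (0.46), Hopx (0.44) and Mal2 (0.44). By member, Arg1, which cleaves arginine, was first for Sprr1a (0.66) and Sprr3 (0.62), and Crct1 was first for Sprr2f (0.66) and Sprr2d (0.59). Krt6b, a keratin of activated squamous cells, was first for Sprr1b (0.51) and Sprr2h (0.48). For Sprr2a3 the highest value was 0.32, with Arg1. The other genes among the 3 highest for these 7 members were Psca, Cnfn, Ly6d, Rbp2, Clic3, Aldh1a3 and Klk12. Sprr2a1 (Chac1, Defb14 and Nelfcd) and Sprr2a2 (Zdhhc7, Ly6g6c and Pdzk1ip1), with a UMI in 10 and 9 thinned cells, had no value over 0.22, which is no finding at such counts. Among the members, Sprr1a and Sprr2f were most alike (0.64), followed by Sprr1a and Sprr3 (0.59) and Sprr2d and Sprr2f (0.57), while no member reached more than 0.27 with Sprr2a3.

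Of the 6 other Sprr symbols, Sprr2i had 340 UMIs in esophageal squamous cells, the pseudogene Sprr2j-ps 210, Sprr2e 115, Sprr2b 76, Sprr2k 31 and Sprr4 0. In stomach columnar cells Sprr2b had 67 UMIs and each of the other 5 had 0. Sprr2b thus sided with the Sprr2a copies, with 27.1 CPM in the stomach and 4.12 CPM in the esophagus. Of its last 500 bases, 10.6% of the windows of 50 bases also occurred in a Sprr2a gene.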

How the data were processed

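Single-cell RNA sequencing measured transcripts in 1 esophageal and 1 stomach organoid sample, pooled and told apart by MULTI-seq tags. The authors deposited raw UMI counts per gene and barcode together with the sample assigned to each barcode by deMULTIplex. Cell Ranger 3.1.0 and build mm10 are named in the submitters' processing notes, and the length of the transcript read is not given in the sources used here. The matrix held 1099 barcodes, all distinct, and none was assigned to both tags. The table of raw tag counts was not used.

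Kept cells had over 100 and under 8500 genes, no more than 80000 UMIs and a mitochondrial share of up to 20%, limits which the study's methods give for tissue cells. Squamous cells had at least 75% of their UMIs of 6 keratins (at least 5 UMIs) from Krt5, Krt14, Krt6a and Krt13, and columnar cells at most 25%, counted as shares of 0.75 and 0.25. Against doublets there was the demultiplexing of the authors, and cells between these shares were left out as hybrid. Scrublet marked 5 of 1099 barcodes (0.455%), too few for a caller that has worked, and its removal was an alternative only.

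UMIs were summed over cells. Intervals were exact Poisson for sums, conditional binomial for ratios and Clopper-Pearson for shares. No test was made, since each group is 1 sample and cells are not replicates. The score was the mean z of suprabasal minus that of basal genes on log2(1 + UMIs per 10000). Shares of cells were computed on counts thinned to 5000 UMIs, which kept 491 of 702 squamous and 45 of 46 columnar cells. Ratios over all genes took those with 10 or more UMIs in the 2 groups compared, and a count of 0 enters at a floor of 3 counts, 0.163 CPM in squamous and 1.21 CPM in columnar cells.

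The 9 members and all lists were chosen with earlier results of these data known. Named were the members, the other Sprr symbols, up to 6 envelope genes with the largest ratio of bin 5 to bin 1 and at least 20 UMIs, and the genes with the highest rank correlation, 8 with the family and 3 with each member, among those in at least 5% of cells. The limits of 50 and 100 UMIs for high cells, and windows of 50 and 90 bases, were set during the work. Transcripts and positions came from GENCODE M21 (GRCm38) and promoters from RefSeq (GRCm38.p6). Alternatives covered filters, the keratin call, score, grouping, scaling, cell weights and the leading cells. The interval step was tested on simulated counts, and the totals after thinning were checked on cells of these data. Python 3.11.15 was used with numpy 2.4.6, scipy 1.17.1, pandas 2.3.3, scikit-learn 1.9.0, scanpy 1.11.5 and matplotlib 3.10.9.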

Additional observations from a re-analysis of the deposited data

Results flagged for a closer look

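Signal of the family was present in cells that the comparisons left out. The 21 squamous droplets of the stomach tag, with a median of 747 UMIs, had 19 UMIs of Sprr1a, Sprr1b, Sprr2d, Sprr2f, Sprr2h and Sprr3 (773 CPM), against 28 UMIs (11.3 CPM) in the 46 columnar cells of the same tag. Sprr2a3 stood at 1595 CPM (1323 UMIs) in the 24 columnar cells of the esophageal tag, above the 165 CPM of the squamous cells of that tag. In the 41 columnar stomach cells over the limit on UMIs or genes it stood at 2049 CPM (10671 UMIs), against 2753 CPM in the columnar cells kept. The study's methods report cells with wrongly assigned sample barcodes, so the tissue of cells whose tag and keratin call differ is uncertain. The cause of these signals was not tested.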

How the results depend on the processing

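No paired analysis was possible because each group has 1 sample, and for the same reason no replicate could be left out. The directions of the 9 members were the same in 81 of 81 values by tissue, 99 of 99 by differentiation and 27 of 27 by depth, and 26, 25 and 6 of them moved by over 1.5 times. Each of the Sprr2a copies, which share 3′ sequence, enters these counts. The family sum by tissue (log2 ratio of esophagus over stomach -0.49) was -0.37 with no cell filter, -0.57 with keratin shares of 0.9 and 0.1, 0.39 as the mean of single cells, -0.61 without the leading cell, -0.30 with TMM scaling (which adds 0.19 to every log2 ratio) and -0.58 in cells of at least 10000 UMIs. The log2 ratio of bin 5 over bin 1 (5.95) was 5.82 with a thinned score, 5.20 with 3 groups, 5.70 from 10000 UMIs, 5.69 without upper limits, 5.50 as the mean of single cells, 5.79 without the leading cell and 5.45 between Leiden clusters. That of the shallowest over the deepest band (1.86) was 2.13 with bands of under 3000 and at least 30000 UMIs and 1.76 without the mitochondrial limit. The Sprr2f share (45.1%) was 42.9% without the leading cell. Leaving out the 10 leading cells, an alternative chosen after seeing the data, gave -2.25, 3.55, 4.33 and 23.0%. In these ratios it lowered only the esophageal cells, bin 5 and the deepest band, in that order. Under the same alternative the log2 ratio of cells under 2000 UMIs over bin 5 turned to 1.28 for Sprr1a, 2.50 for Sprr2d, 2.40 for Sprr2f, 1.80 for the 6 members other than the Sprr2a copies and 1.72 for the family, and that of shallower over deeper cells above the median score to 2.40 for Sprr2d, 2.92 for Sprr2f and 3.03 for the 6 members. Sprr1a in the first turned (0.057) without the leading cell of each group. In these cases the direction rests on the cells left out. The 10 cells were ranked by family UMIs and all lay on the deeper side, so leaving them out lowers that side alone. The cause of the other shifts was not tested. The envelope count stayed at 13 by tissue and at 15 or 16 by differentiation.

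Depth limits the stomach arm most: a lone UMI in 2469229 bounds each of Sprr1b, Sprr2f, Sprr2h and Sprr3 there only to within its counting interval. Cells under 5000 UMIs have no score and no thinned share. Intervals cover counting error and neither the spread between mice nor that between cultures.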

Other observations

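Leiden clustering of the 491 squamous cells without Sprr and envelope genes gave 6 clusters. In 1 of them (96 cells) Sprr1a, Sprr1b, Sprr2d, Sprr2f, Sprr2h and Sprr3 together stood at 10100 CPM, and in the other 5 at 35.2 to 109 CPM. Sprr2a3 stood at 373 CPM in that cluster and at 62.9 to 157 CPM in the others. These are sums over cells, and how few cells carried them within a cluster was not measured. In bin 5 of the score, 4 of 98 cells held 50% of the UMIs of Sprr1a, Sprr1b, Sprr2d, Sprr2f, Sprr2h and Sprr3 together. In 108 squamous cells over the mitochondrial limit, the 9 members together stood at 301 CPM (208 UMIs), and in 22 over the limit on UMIs or genes at 410 CPM (904 UMIs).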
